A study of Mus musculus with 3 samples.

Results

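The Hippo pathway was examined in mouse blastocysts through 10 genes, matched by symbol among the 24063 genes of the count table. They are the transcriptional cofactors Yap1 and Wwtr1 (which encodes TAZ), the kinases Lats1 and Lats2, the membrane scaffold Nf2, the angiomotins Amot, Amotl1 and Amotl2, and the target genes Ctgf and Cyr61. All 10 were found, each as 1 row, and all 10 passed the filter on low counts. The libraries were made from untreated embryos at the blastocyst stage, 1 from C57BL/6 (B6) mice and 2 from non-obese diabetic (NOD) mice, an inbred strain that develops autoimmune diabetes spontaneously. The labels give no genotype beyond strain and no age or sex of the embryos. The wording on input differs, since the labels name whole blastocysts. The study describes inner cell masses (ICM) isolated by immunosurgery, and its methods name single ICMs. Nothing states whether the NOD libraries came from separate litters, so that the spread between them may be partly technical, and no spread is known for B6.

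In the Hippo pathway, the kinases Stk3 and Stk4 (MST) with their adaptor Sav1 activate Lats1 and Lats2, which together with Mob1 phosphorylate YAP and TAZ. Phosphorylated YAP and TAZ are held in the cytoplasm by 14-3-3 proteins or degraded, whereas the unphosphorylated cofactors enter the nucleus and bind the TEAD factors. In the mouse blastocyst this switch separates the first lineages, because polarised outer cells keep YAP in the nucleus and, through Tead4, express Cdx2 and Gata3 for trophectoderm, while in apolar inner cells angiomotin and the Nf2 product merlin activate Lats at the junctions. These steps are set largely by protein localisation and phosphorylation, which RNA counts do not measure.

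TEAD factors recognise the letters GGAATG, or CATTCC on the other strand, and such elements are known in promoters of YAP target genes. Promoter windows of 300 bases (250 before and 50 from the start of the listed transcript) were taken from RefSeq on GRCm38.p6, which has the coordinates of mm10, and a window matched for 9 of the 10 genes, the exception being Ctgf. The letters occurred on either strand in 5 of these 9 windows (Yap1, Wwtr1, Lats2, Amotl2 and Cyr61) and in 14.7% of all 32851 windows. Among the other pathway genes described below, 12 of 50 windows held them. A match of letters is a description of the window and not evidence of binding. The stretches before the start are shown for the target gene Cyr61 and for Amotl2, which is both an angiomotin and a known target of YAP, and for the cofactor genes themselves. Capitals mark the TEAD letters and, in Cyr61, also the TATA box letters TATAAA that lie 25 bases before the start. The stretches are chr3:145649986-145650118 (minus strand) for Cyr61, chr9:102717709-102717774 (plus strand) for Amotl2, chr9:8004702-8004767 (minus strand) for Yap1 and chr3:57576011-57576076 (minus strand) for Wwtr1, each written 5′ to 3′ along the gene.
Cyr61: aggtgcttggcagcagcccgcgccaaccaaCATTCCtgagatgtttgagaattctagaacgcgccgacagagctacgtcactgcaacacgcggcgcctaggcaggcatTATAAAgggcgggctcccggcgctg
Amotl2: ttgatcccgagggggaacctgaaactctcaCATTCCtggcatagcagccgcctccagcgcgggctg
Yap1: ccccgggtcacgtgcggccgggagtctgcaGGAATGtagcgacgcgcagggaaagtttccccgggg
Wwtr1: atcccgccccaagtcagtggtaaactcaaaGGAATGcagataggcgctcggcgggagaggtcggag
The element began 103 bases before the start in Cyr61 and 65 in Amotl2, in both cases as CATTCC on the gene strand. It began 141 bases before the start in Yap1 and 170 in Wwtr1, as GGAATG. In Lats2 the letters began 4 bases after the start. The windows of Lats1, Nf2, Amot and Amotl1 did not contain these letters.

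**Figure D1:**
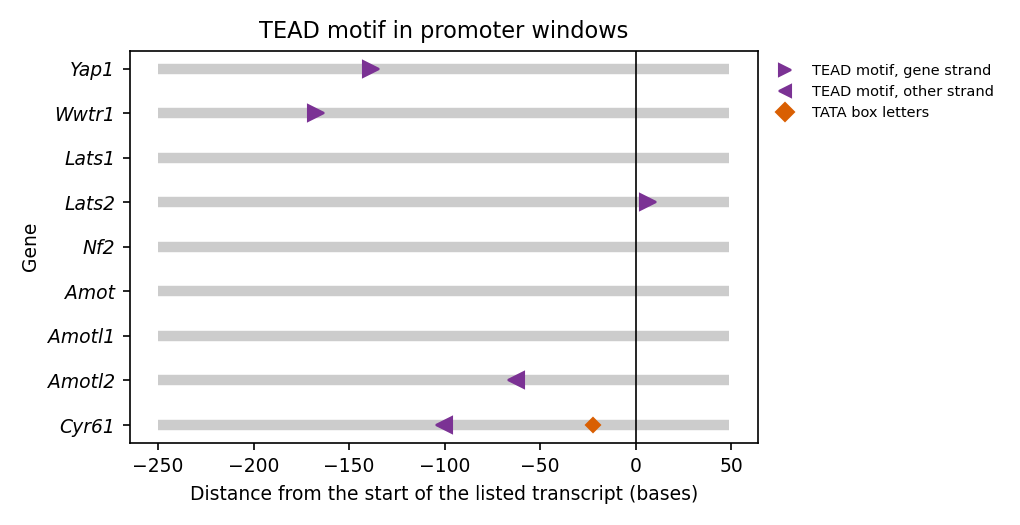
Position of the TEAD letters in the promoter windows of 9 Hippo pathway genes, with the distance from the start of the listed transcript in bases on the x axis and 1 gene per row. Triangles point along the strand that reads GGAATG, and the diamond marks the TATA box letters. The element lies 65 to 170 bases before the start in Yap1, Wwtr1, Amotl2 and Cyr61 and just after it in Lats2.

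Counts on genes summed to 12505685 in B6 and to 33891715 and 36171013 in the NOD libraries, which had 2.71 and 2.89 times the depth of B6. Values are given as CPM, counts divided by the TMM-scaled library total and set to a common total, so that 1 count was 0.0734 CPM in B6 and 0.0303 and 0.0294 in NOD 1 and NOD 2. The contrast of NOD with B6 was tested in edgeR (quasi-likelihood) on 14456 genes with Benjamini-Hochberg adjustment over all of them, and calls required an adjusted p under 0.05 together with a change of 2-fold or more. The smallest p that exact permutation of these 3 libraries allows is 0.333, so that calls rest on a spread moderated across genes. By this rule 17.7% of all genes were called, 10.3% up and 7.39% down in NOD. Over all genes tested the median was 0.26 on the log2 scale and moved to 0.07 with library totals in place of TMM, with the share of calls that were up moving from 58.1% to 47.8%. Of the 14456 genes, 1618 had 0 counts in B6 and could not lie below it. Among genes with at least 10 counts in each library the median was 0.02, and 51.1% of calls were up. As a check of the tissue, the 8 trophectoderm markers summed to 2949 CPM in B6 against 1705 in NOD 1 and 1581 in NOD 2, with 7 of 8 counted in each library and Elf5 at 0 in B6. Krt18 (1464, 811.9 and 852.5 CPM) and Krt8 made up most of this sum. Krt7, unlike the sum, lay above B6 in both NOD libraries (47.2, 55.2 and 53.96 CPM). The 7 epiblast markers, all counted in every library, summed to 371.4, 448.7 and 645.1 CPM. Of these, Pou5f1, Nanog, Fgf4 and Tdgf1 lay above B6 in both NOD libraries, and Sox2, Esrrb and Klf2 lay below it in both. The 4 primitive endoderm markers summed to 391.2, 118.1 and 158.4 CPM, with Sox17 at 0 in B6 and NOD 1. The members of that list differed in direction, since Gata6, which makes up most of the sum, was called down (385.2, 91.5 and 129.9 CPM, adjusted p = 0.0285) and Pdgfra up (5.50, 23.6 and 24.6 CPM, adjusted p = 0.0488). Markers of leukocytes, cumulus cells and fibroblasts (5 each) reached at most 1.03, 0.147 and 3.24 CPM in sum. Whichever the input, fewer cells of a type and less RNA per cell cannot be told apart. The part of these marker differences in the results below was not tested.

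None of the 10 Hippo genes was called in NOD against B6, where 17.7% of all genes tested were called. The largest differences were those of Ctgf, which was 4.57-fold higher in NOD by the fit but disagreed in size between the NOD libraries, and of Amotl1, which was low in every library. At an unadjusted p under 0.05 the edgeR test also passed 0 of the 10, against 5763 of the 14456 genes tested. limma-voom passed 0 at that level (3924 of all genes), and edgeR with its default dispersion passed 1 (4954 of all genes). DESeq2, and edgeR restricted to genes with at least 10 counts in each library, called 1 gene, Ctgf, in settings that called 4252 of 14456 and 3934 of 10842 genes. The median log2 fold change of the 10 genes was 0.00. In 5 genes both NOD libraries lay above B6, against 45.3% of all genes tested, and in 4 both lay below, against 39.4%. The plot of CPM by library shows Wwtr1, Lats1, Lats2, Nf2 and Ctgf above B6 in both NOD libraries and Yap1, Amot, Amotl1 and Amotl2 below it, with B6 between the NOD libraries for Cyr61.

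**Figure D2:**
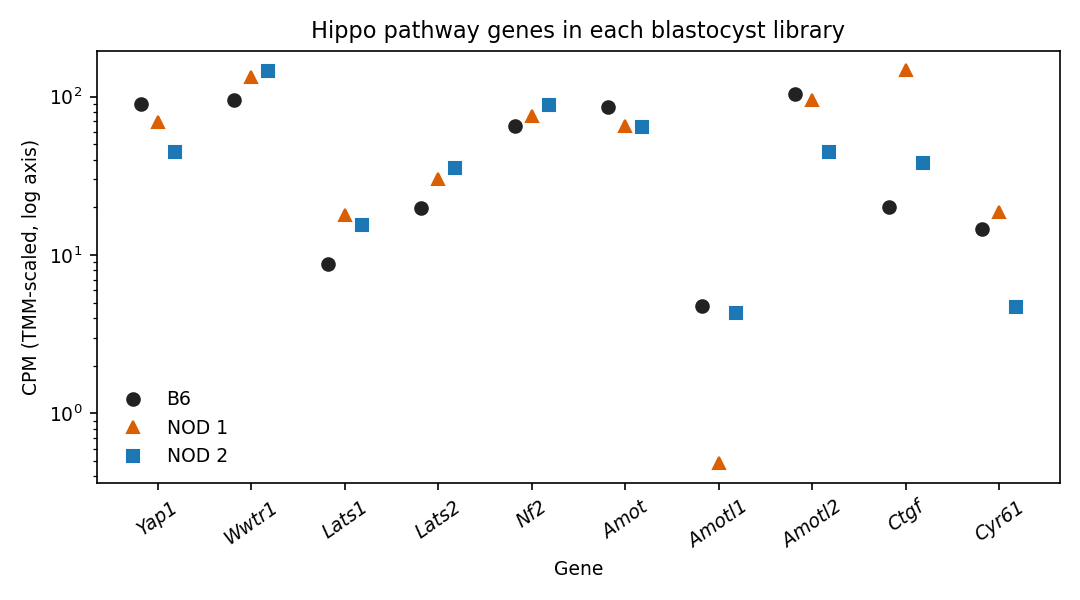
Level of each of the 10 Hippo genes in CPM (TMM-scaled, log axis), with 1 point per library for B6 (circles), NOD 1 (triangles) and NOD 2 (squares). Levels run from 0.484 CPM for Amotl1 in NOD 1 to 146.2 CPM for Ctgf in NOD 1, and the NOD points lie farthest apart for Amotl1, Cyr61, Ctgf and Amotl2.

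Neither cofactor gene was called, and the 95% intervals of both include 0. Yap1 (NM_001171147, chromosome 9, 7932001 to 8004596 in mm10, minus strand) encodes the founding cofactor of the pathway and had 1219 counts in B6 against 2276 in NOD 1 and 1524 in NOD 2. After scaling, the level was 89.5 CPM in B6 against 68.9 in NOD 1 and 44.8 in NOD 2, with both NOD libraries below B6. Its log2 fold change was -0.65 (standard error 0.39, 95% interval -1.67 to 0.36, adjusted p = 0.266 from edgeR). Wwtr1 (NM_133784, chromosome 3, 57455644 to 57575876, minus strand) encodes TAZ, the paralogue that binds the same TEAD factors, and had 94.7 CPM in B6 against 132.1 in NOD 1 and 144.9 in NOD 2. The NOD libraries lay close together, at 138.5 ± 9.06 CPM (SD, n = 2), and above B6. The log2 fold change was 0.55 (standard error 0.27, 95% interval -0.17 to 1.27, adjusted p = 0.203). Because a ratio within a library does not depend on how libraries are scaled, the level of Wwtr1 per kilobase was divided by that of Yap1, which gave 0.928 in B6, 1.68 in NOD 1 and 2.84 in NOD 2. Yap1 was thus slightly the more abundant per length in the B6 library and Wwtr1 in both NOD libraries, a description on 3 libraries with no test. On counts not divided by length the ratio in B6 was 1.06, so that the order within B6 depends on the listed lengths.

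The Lats kinases, which place the inhibitory phosphates on YAP and TAZ, were both higher in each NOD library than in B6, against 45.3% of all genes. Lats1 (NM_010690, chromosome 10, 7681209 to 7716461, plus strand) had 120 counts in B6 against 595 in NOD 1 and 526 in NOD 2, or 8.81, 18.0 and 15.5 CPM. Lats2 (NM_015771, chromosome 14, 57689662 to 57746123, minus strand) had 269, 992 and 1201 counts, or 19.7, 30.01 and 35.3 CPM. Neither was called. The log2 fold change of Lats1 was 0.93 (standard error 0.51, 95% interval -0.39 to 2.24, adjusted p = 0.233). For Lats2 it was 0.73 (standard error 0.40, 95% interval -0.33 to 1.78, adjusted p = 0.240). These intervals include both no change and an increase of more than 2-fold. Per kilobase Lats2 was the more abundant paralogue in each library, 3.12 times Lats1 in B6, 2.32 times in NOD 1 and 3.18 times in NOD 2. In GENCODE M21, 41.2% of the 50-base words of Lats2 also occur in Gm49361, a gene model on the same exons, or in other genes, whereas for Lats1 the share was 0.0274%.

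Nf2 (NM_001252250, chromosome 11, 4765845 to 4849544, minus strand) encodes merlin, which recruits Lats to the membrane, and differed least from B6 among genes whose NOD values lay above it. It had 894 counts in B6 against 2500 in NOD 1 and 2999 in NOD 2, which is 65.6, 75.6 and 88.1 CPM. The log2 fold change of 0.32 (95% interval -0.52 to 1.15, standard error 0.32, adjusted p = 0.479) was close to the median of all genes tested, 0.26. Among genes with at least 10 counts in each library, the value for Nf2 was 0.38 against a median of 0.02.

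The angiomotins bind merlin, Lats and YAP at junctions and the actin cortex. In all 3 the NOD libraries lay below B6, against 39.4% of all genes. Amot (NM_153319, chromosome X, 145446424 to 145487639, minus strand) had 85.3 CPM in B6 against 64.9 in NOD 1 and 64.4 in NOD 2. The agreement of the NOD libraries was the closest among the 10 genes, with a ratio of 1.01, and the log2 fold change was -0.40 (standard error 0.31, 95% interval -1.20 to 0.40, adjusted p = 0.368). Amotl2 (NM_019764, chromosome 9, 102717804 to 102733417, plus strand) had 103.9 CPM in B6 against 95.8 in NOD 1 and 44.8 in NOD 2. NOD 1 was therefore near B6 and NOD 2 well below it, and the log2 fold change was -0.56 (95% interval -1.90 to 0.77, standard error 0.51, adjusted p = 0.435), against -0.12 without NOD 2 and -1.20 without NOD 1. Amotl1 (NM_001081395, chromosome 9, 14541967 to 14615000, minus strand) had only 65 counts in B6 against 16 in NOD 1 and 147 in NOD 2, or 4.77, 0.484 and 4.32 CPM. The B6 and NOD 2 libraries were alike and NOD 1 was 8.92 times lower than NOD 2 (exact 95% counting interval 5.32 to 16.02). Its log2 fold change was -0.99 (standard error 1.35, 95% interval -4.51 to 2.53, adjusted p = 0.603), and it was -3.29 without NOD 2 and -0.13 without NOD 1. Per kilobase, Amot exceeded Amotl1 22.996 times in B6, 172.5 times in NOD 1 and 19.2 times in NOD 2. Amotl2 exceeded Amot 2.02 times in B6, 2.45 times in NOD 1 and 1.16 times in NOD 2, the last being 0.696 on counts not divided by length.

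Ctgf and Cyr61 encode secreted matricellular proteins and are the target genes most used as a readout of YAP and TAZ. Ctgf (NM_010217, chromosome 10, 24595442 to 24598682, plus strand) had 275 counts in B6 against 4833 in NOD 1 and 1300 in NOD 2, which is 20.2, 146.2 and 38.2 CPM. Both NOD libraries lay above B6, NOD 1 by far the most. The mean in NOD was 92.2 ± 76.4 CPM (SD, n = 2) and the log2 fold change 2.19 (standard error 0.90, 95% interval -0.17 to 4.55, adjusted p = 0.144). The log2 fold change was 0.94 without NOD 1 and 2.86 without NOD 2. The adjusted p was 0.00273 with DESeq2 and 0.000397 in edgeR with at least 10 counts in each library. In the other alternatives it ranged from 0.113 to 0.421. In GENCODE M21, 17.2% of the words of Ctgf also occur in another gene, and the model Gm15270 overlaps its exons. Cyr61 (NM_010516, chromosome 3, 145646971 to 145649985, minus strand), with no shared words, had 198 counts in B6 against 619 in NOD 1 and 159 in NOD 2, or 14.5, 18.7 and 4.67 CPM. B6 lay between the NOD libraries. The log2 fold change of Cyr61 was -0.31 (standard error 0.89, 95% interval -2.64 to 2.01, adjusted p = 0.807), and it was 0.37 without NOD 2 and -1.62 without NOD 1. The direction in Cyr61 thus depended on which NOD library was used.

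**Figure D3:**
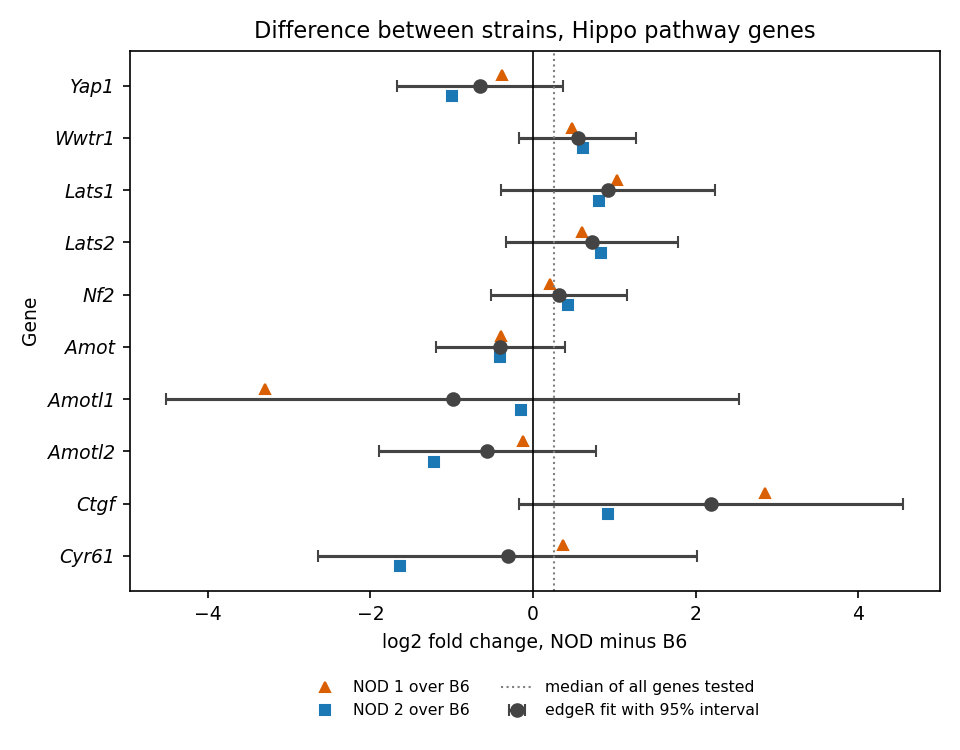
Log2 fold change of NOD over B6 for the 10 Hippo genes, with the edgeR estimate and its 95% interval in grey and the log2 ratio of each NOD library to B6 as coloured symbols. Every interval includes 0, those of Amotl1, Cyr61 and Ctgf are the widest, and the dotted line marks the median of all genes tested at 0.26.

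Between the NOD libraries themselves, the Hippo genes fell into those that were nearly equal and those that were not. Wwtr1, Lats1, Lats2, Nf2 and Amot differed by at most 1.18-fold between NOD 1 and NOD 2, and Yap1 by 1.54-fold. Ctgf was 3.83 times higher in NOD 1 (exact 95% counting interval 3.60 to 4.07), Cyr61 4.01 times (3.36 to 4.80) and Amotl2 2.14 times (2.01 to 2.27), and Amotl1 was the exception in the other direction. In this comparison of 1 library with 1, with no replicate check, 3 of the 10 genes were at least 2-fold higher in NOD 1, against 13.1% of all genes tested, and 1 was at least 2-fold higher in NOD 2, against 13.6%. Ctgf and Cyr61 kept nearly the same proportion in both NOD libraries, with Cyr61 per kilobase at 0.152 of Ctgf in NOD 1 and 0.145 in NOD 2, against 0.853 in B6. The trophectoderm markers in sum were 1.08 times as high in NOD 1 as in NOD 2 and the epiblast markers 0.696 times. The trophectoderm sum is mostly Krt18 and Krt8, and its members differed in direction. Gata3 was higher in NOD 1 than in NOD 2 (337.9 against 147.9 CPM) and Tfap2c lower (81.8 against 120.0 CPM). The part of the markers in the differences of the Hippo genes was not tested.

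**Figure D4:**
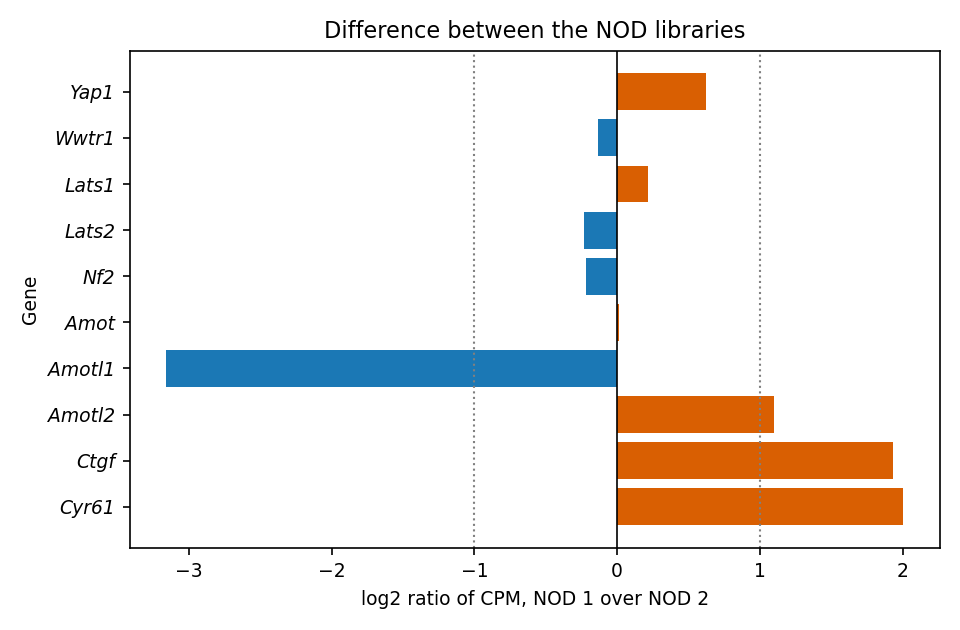
Log2 ratio of CPM in NOD 1 over NOD 2 for each of the 10 Hippo genes, with bars to the right for genes higher in NOD 1 and dotted lines at 2-fold. Ctgf, Cyr61 and Amotl2 pass the line to the right and Amotl1 to the left, and the other bars stay between the lines.

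Levels of different genes were compared as FPKM, which is CPM by total counts on genes divided by the listed length in kilobases. In B6 the most abundant of the 10 was Amotl2 at 27.1 FPKM, followed by Yap1 at 23.4, Wwtr1 at 21.8, Nf2 at 15.04 and Amot at 13.4. Ctgf (9.18), Cyr61 (7.83), Lats2 (4.15), Lats1 (1.33) and Amotl1 (0.582) followed. In NOD 1 Ctgf headed the order at 59.5 FPKM and in NOD 2 Wwtr1 did at 28.8. Lats1 and Amotl1 were the lowest in each library. Over the NOD libraries, Nf2 (16.5 ± 1.36 FPKM, SD, n = 2), Amotl2 (16.2 ± 8.67) and Yap1 (13.1 ± 4.26) could not be ordered beyond their spread, nor could Lats2 (6.03 ± 0.54) and Cyr61 (5.61 ± 4.85), nor could Cyr61 and Amot (8.92 ± 0.28), since Cyr61 reached 9.04 in NOD 1. Ctgf (37.3 ± 31.5) overlapped Wwtr1 (27.96 ± 1.12), which lay above the remaining genes in both NOD libraries, and Lats1 (2.23 ± 0.30) lay above Amotl1 (0.254 ± 0.284) in both. Among genes with counts, Wwtr1 stood at percentile 71.0 in B6, 77.7 in NOD 1 and 78.95 in NOD 2, and Amotl1 at 19.2, 6.44 and 21.3.

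The other genes of the pathway were taken from 8 lists with 87 genes in the table, of which 74 were tested. Of these 74, 4 were called up and 5 down in NOD, or 9 in all against 17.7% of all genes, and 3 of the 4 up had 0 counts in B6. In 42 both NOD libraries lay below B6 (39.4% of all genes) and in 21 above (45.3% of all genes), of which 5 had 0 counts in B6 and could only lie above it. The median log2 fold change was -0.41, against 0.26 for all genes, of which 1618 likewise had 0 counts in B6 and could not lie below it. No gene of the lists was called with limma-voom (3924 of all genes at an unadjusted p under 0.05) or with genes of low count kept (5568), settings in which no gene of the whole table was called.

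Of the MST kinases, their adaptors and the NDR kinases, which are relatives of Lats, 0 of 7 tested were called, against 17.7% of all genes. Of these 7, 3 had an unadjusted p under 0.05 (5763 of 14456 over all genes), and the median log2 fold change was 0.98. Stk3 had 131 counts in B6 against 821 in NOD 1 and 987 in NOD 2 (9.61, 24.8 and 29.01 CPM) and differed by 1.49 on the log2 scale (adjusted p = 0.0820, standard error 0.46). Its paralogue Stk4, at 54.2 CPM in B6 against 75.01 in NOD 1 and 53.5 in NOD 2, had a log2 fold change of 0.25 (adjusted p = 0.649). Of the Lats coactivators, Mob1b had 4.99, 13.6 and 15.2 CPM and a log2 fold change of 1.53 (adjusted p = 0.116), and Mob1a had 5.14, 4.99 and 15.3 CPM, with only NOD 2 above B6. The adaptor Sav1, with 24.7% of its words also in another gene, had 16.4, 23.6 and 16.8 CPM (log2 fold change 0.29, adjusted p = 0.664). The NDR kinase Stk38, a relative of Lats with the highest level per length of the list, had 235.2 CPM in B6 and 99.6 and 174.01 in NOD (adjusted p = 0.198).

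Of 10 other kinases known to phosphorylate Lats, 3 were called down, against 7.39% of all genes, and 8 were lower than B6 in both NOD libraries, against 39.4% of all genes. The difference from the core kinases was not tested. Map4k2 had 380 counts in B6 against 68 in NOD 1 and 81 in NOD 2, or 27.9, 2.06 and 2.38 CPM, a log2 fold change of -3.65 (adjusted p = 0.0243, standard error 0.53). Mink1 had 131, 12 and 11 counts, a log2 fold change of -4.79 (adjusted p = 0.0323, standard error 0.85). Map4k1, with the highest level per length of this list in B6 and by the mean of the 3 libraries but not in NOD, had a log2 fold change of -1.55 (adjusted p = 0.0455, standard error 0.34), from 68.9 CPM in B6 to 23.99 and 22.95 in NOD. In all 3 the NOD libraries lay close to each other. Map4k1 was not called when upper-quartile factors were used (adjusted p = 0.0553).

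Among the TEAD factors, Tead4, which is required for trophectoderm, had the highest level per length and 135.8 CPM in B6 against 75.2 in NOD 1 and 54.4 in NOD 2. Both NOD libraries were below B6, but the log2 fold change of -1.07 (standard error 0.33) did not pass (adjusted p = 0.0838). Vgll4, which competes with YAP for TEAD, had 39.8, 12.2 and 6.70 CPM, a log2 fold change of -2.07 (adjusted p = 0.0564, standard error 0.52). The vestigial-like cofactors Vgll3 and Vgll1, which also bind TEAD, were called up from 0 counts in B6. Such genes passed the filter on low counts only through the NOD libraries where they are high, so that their direction was fixed by the filter, and they are not among the genes with at least 10 counts in each library. Vgll3 had 515 counts in NOD 1 and 320 in NOD 2, and the NOD mean of 12.5 CPM was at least 56.7-fold above the B6 floor of 3 counts (0.220 CPM, adjusted p = 0.0234). Vgll1 had 86 and 154 counts, with a NOD mean of 3.56 CPM at least 16.2-fold above it (adjusted p = 0.0444), but missed the threshold under scaling by total counts (adjusted p = 0.0513) or by upper-quartile factors (0.0542). With the dispersion that edgeR estimates by default, the adjusted p was 0.0516 for Vgll3 and 0.188 for Vgll1.

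Of 9 tested genes of the phosphatase complex STRIPAK, which counters the MST kinases, 1 was called up, against 10.3% of all genes. This was the catalytic subunit gene Ppp2ca, from 262.3 CPM in B6 to 597.3 and 625.9 in NOD (log2 fold change 1.22, standard error 0.22, adjusted p = 0.0325). As 41.0% of its words occur in another gene, this value is uncertain. None of 12 tested membrane and junction regulators was called, against 17.7% of all genes (2 at an unadjusted p under 0.05, against 5763 of 14456), with Ctnna1, which encodes alpha-catenin, at the highest level per length and a log2 fold change of -0.40 (adjusted p = 0.281). Of 17 genes for 14-3-3 proteins and for the turnover of YAP and angiomotins, 1 was called, against 17.7% of all genes, and this was Sfn. Sfn encodes an epithelial 14-3-3 protein, shares 15.0% of its words with another gene, and went from 638.6 CPM in B6 to 154.1 in NOD 1 and 243.9 in NOD 2. Its log2 fold change was -1.68 (adjusted p = 0.0364, standard error 0.32), and with upper-quartile factors it was not called (adjusted p = 0.0548). Ywhae, the most abundant gene of that list per length, had 938.2, 943.9 and 1017 CPM (log2 fold change 0.06, adjusted p = 0.816).

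A list of 16 further YAP and TAZ target genes was examined, most of them known from other cell types, and 7 of these did not pass the filter on low counts. The 1 call among the 9 tested was F3, which encodes tissue factor and, like Vgll3 and Vgll1, passed the filter only through the NOD libraries, from 0 counts in B6 to 192 in NOD 1 and 347 in NOD 2, with a NOD mean of 8.004 CPM at least 36.4-fold above the B6 floor (adjusted p = 0.0279, or 0.0896 with the default dispersion). Both NOD libraries lay above B6 in 4 genes (45.3% of all genes), of which F3, Ankrd1 and Nt5e had 0 counts in B6 so that their direction was fixed by the filter, and below it in 5 (39.4% of all genes). Gadd45a, the most abundant of them per length in B6 and by the mean of the 3 libraries but not in NOD, with 15.6% of its words in another gene, had 9.39 CPM in B6 against 3.12 in NOD 1 and 4.38 in NOD 2 (adjusted p = 0.210). Between the NOD libraries, 4 of the 9 were at least 2-fold higher in NOD 2 (13.6% of all genes) and 1 in NOD 1 (13.1% of all genes). Each of these genes had at most 13 counts in the lower of the NOD libraries.

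The lineage genes downstream of the pathway in the blastocyst were lower in both NOD libraries than in B6 in 3 of 3 cases, against 39.4% of all genes. Cdx2, a trophectoderm factor, had 84.2 CPM in B6 against 66.9 in NOD 1 and 53.8 in NOD 2 (log2 fold change -0.48, adjusted p = 0.327). Gata3 had 468.5, 337.9 and 147.9 CPM (log2 fold change -0.95, adjusted p = 0.219) and was 2.28 times higher in NOD 1 than in NOD 2. Sox2, an ICM gene that YAP represses in outer cells, was called down, with 49.8 CPM in B6 against 5.75 in NOD 1 and 9.61 in NOD 2 (log2 fold change -2.70, adjusted p = 0.0327, standard error 0.48). The other ICM markers did not share one direction, as Tdgf1 was called up (1.47, 30.3 and 48.6 CPM, adjusted p = 0.0231), while Nanog had 118.5, 217.3 and 336.5 CPM (adjusted p = 0.0752) and Esrrb 41.3, 4.93 and 14.3 CPM (adjusted p = 0.0943).

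**Figure D5:**
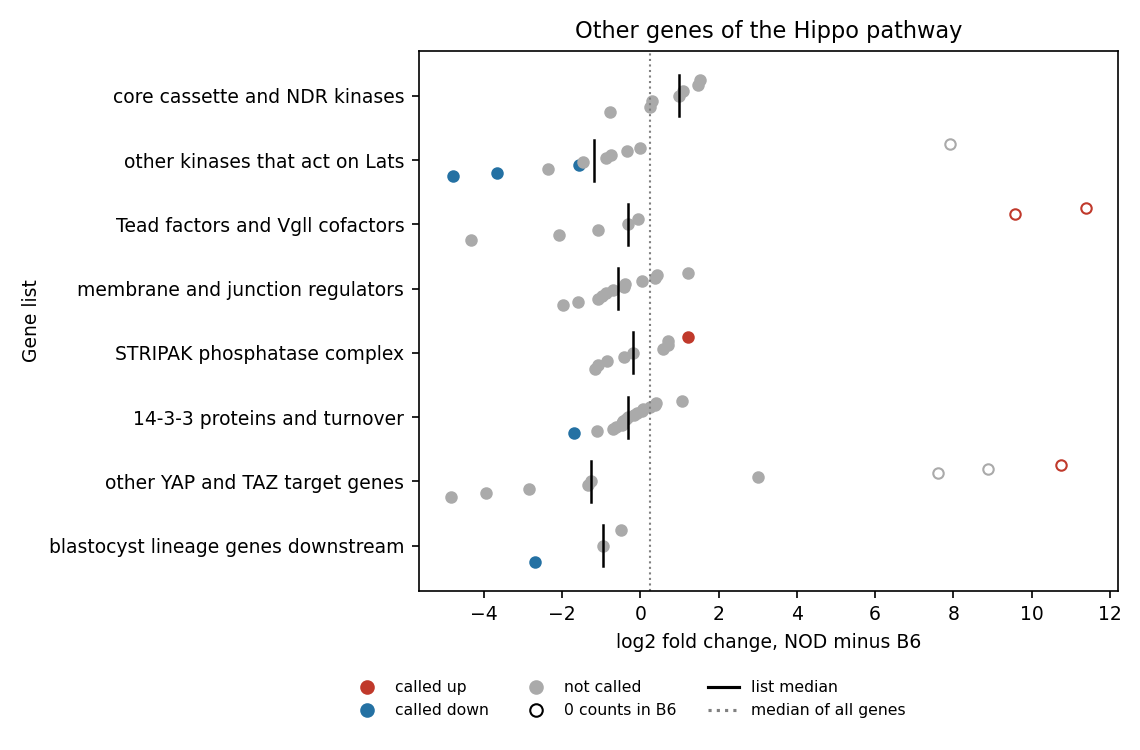
Log2 fold change of NOD over B6 for 74 tested genes of the Hippo pathway lists, 1 point per gene, coloured by call, with a black bar at each list's median. Open circles are genes with 0 counts in B6, whose position depends on the prior count and is no bound, and the dotted line marks the median of all genes at 0.26; calls are 4 up and 5 down.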

How the data were processed

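Low-input RNA-Seq libraries (SMART-Seq V4, amplified by PCR without molecular identifiers, single-end reads) labelled as blastocysts were analysed, 1 of B6 and 2 of NOD. The deposited values are raw counts without normalization, which the authors made by STAR alignment to mm10 followed by HOMER, counting exons of RefSeq genes on both strands with 1 transcript kept for each gene. The submitters' processing notes name CASAVA 1.8.2 and STAR 2.2.0c, whereas the paper's methods name another version of STAR. The counting command names 5 libraries, and the count table has values for 3 of them, all of which were used. The treatment of multi-mapped reads is not given in the sources used here, and neither the strand of a read nor the antisense partner of a gene can be told from these counts.

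In R 4.3.3, genes were kept by filterByExpr (minimum count 10), scaled by TMM and tested with edgeR 4.0.16 (quasi-likelihood, trended dispersion, legacy off, prior count 0.125). P values were adjusted over 14456 genes. Standard errors are the log2 fold change divided by the root of F. There was 1 residual degree of freedom beside 3.78 prior ones. DESeq2 1.42.0 and limma-voom 3.58.1 were alternatives, with other scalings, filters and each NOD library left out. The test was checked on simulated counts. Ratios of counts carry exact Clopper-Pearson 95% intervals, which like the floor of 3 counts cover counting error only. FPKM used the listed length. Shared 50-base words were counted in GENCODE M21 of GRCm38, and promoter windows came from RefSeq on GRCm38.p6 (Python 3.11.15).

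The members and lists were chosen with earlier results of these data known. Named were all members, each called gene of the lists, the gene of highest mean level per length over the 3 libraries in each list, and the core genes Stk3, Stk4, Sav1, Mob1a, Mob1b, Tead4, Vgll4, Cdx2, Gata3 and Sox2. Ankrd1 and Nt5e were chosen outside that rule, with their values in view. So were the markers Gata6, Pdgfra, Krt7, Krt8, Krt18, Tfap2c, Pou5f1, Tdgf1, Nanog, Esrrb, Fgf4 and Klf2. Dchs2, a member of 1 list, had no row under that symbol.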

Additional observations from a re-analysis of the deposited data

How the results depend on the processing

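The count of Hippo genes called in NOD against B6 was 0 in the edgeR test and stayed at 0 with DESeq2 size factors, total counts only, upper-quartile factors, genes of low count kept, limma-voom, no limit on the fold and, chosen after seeing the data, the default dispersion of edgeR. It was 1 with DESeq2 and 1 with at least 10 counts in each library, in both cases Ctgf. With no test, 1 of the 10 passed a 2-fold change in the fit, and leaving out 1 NOD library gave 2 to 3. Of 74 other pathway genes tested, 9 were called, against 0 with genes of low count kept, 0 with limma-voom, 18 of 63 with at least 10 counts in each library and 21 with DESeq2, and from 6 to 12 with the other settings. The cause of these shifts was not tested. No alternative with a test changed the direction of a Hippo gene, whereas leaving out NOD 2, with no test, moved Cyr61 from -0.31 to 0.37. Over all genes there were 2552 calls of 14456, 3934 of 10842 with at least 10 counts in each library, 4252 with DESeq2 and 0 with limma-voom or with genes of low count kept. Between the NOD libraries 4 genes were at least 2-fold apart, also with total counts only. Counts were low for Amotl1 (65 in B6, 16 in NOD 1) and for Lats1 in B6 (120), and B6 has no replicate. No paired analysis was possible because B6 has 1 library.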
